A study of Mus musculus with 4 samples.

Results

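Cluster 8 is a group of spots in spatial transcriptomics of sagittal mouse brain sections, in which the astrocyte label leads and many spots carry no cell type at all. Its members were taken by their number in the cluster column that the authors deposited for each section. They are 684 of 14809 spots (4.62%), namely 128 of 3477 spots in the ketamine-treated susceptible section, 179 of 3443 in the susceptible section, 294 of 4156 in the resilient section and 83 of 3733 in the control section. The mice were wild type C57, and a social interaction test after chronic social defeat stress, in which a mouse is repeatedly defeated by an aggressor, sorted the defeated animals into susceptible (avoidant) and resilient (not avoidant). The ketamine-treated susceptible mouse had received ketamine intraperitoneally at 10 mg/kg, and its brain was taken 7 days later. The susceptible, resilient and control mice received saline, and the labels do not say what else the control mouse went through or how old the animals were. Each group is 1 section, so no difference below has a replicate check, no p-value is given, and differences between mice, slides and cutting planes cannot be told apart from the groups.

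Astrocytes are star-shaped glial cells that take up glutamate and potassium around synapses, wrap blood vessels with their endfeet and pass fuel to neurons. Oligodendrocytes make the myelin sheaths of axons, and in white matter they lie among astrocytes. A spatial spot covers a small area that can hold several cells, so a spot with both labels is a mixture and not a cell of mixed type. The deposited tables give each spot a share for each of 67 cell types plus an unknown column, and the shares of a spot sum to 1. A mean share below is that deposited share averaged over all cluster 8 spots of a section, in percent. In such shares, fewer cells of a type and less RNA per cell cannot be told apart. A share of spots holding a label counts every spot where its deposited share is above 0, and carries an exact Clopper-Pearson 95% interval that covers counting error only, as neighbouring spots are not independent. Gene counts were not analysed here, so the depth of the spots is unknown and no gene marker could be checked.

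The astrocyte label fits the cluster as its leading label in every section, but not as its only content. Astro had a mean share of 41.1% in the ketamine-treated, 43.8% in the susceptible, 38.6% in the resilient and 33.0% in the control section. Over all other spots of the same sections it averaged 21.9%, 19.9%, 19.8% and 21.2%, in the same order. Astro was the highest label in 57 of 128 ketamine-treated spots, 87 of 179 susceptible spots, 125 of 294 resilient spots and 31 of 83 control spots. The lead was narrow in the control section, where Oligo was highest in 29 spots. These contrasts with other spots describe the cluster and are not a test, since the clustering used the same spots.

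**Figure D1:**
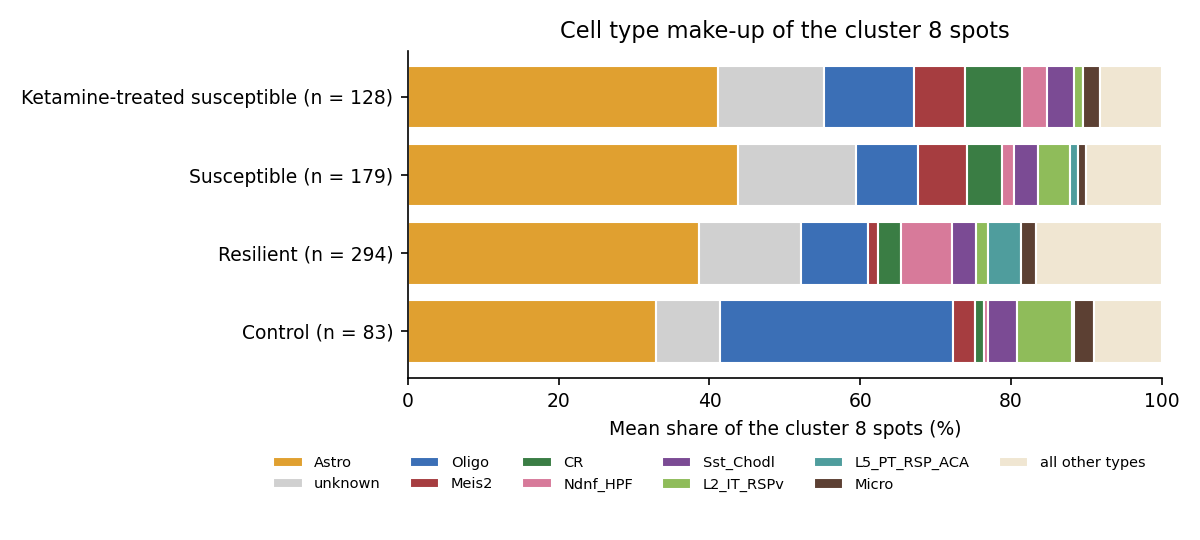
Mean deposited share of each label over the cluster 8 spots, in percent, with 1 bar per section and 1 colour per label. Astro takes between 33.0% and 43.8% of each bar, and Oligo takes 31.0% of the control bar against 8.23% to 12.0% of the others.

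Of the other labels that mark the cluster, Oligo stood at 12.0% in the ketamine-treated, 8.23% in the susceptible, 8.88% in the resilient and 31.0% in the control section. Meis2, a GABAergic type named for a transcription factor, was at 6.67%, 6.47%, 1.23% and 2.81% in that order. CR, whose name stands for Cajal-Retzius cells (reelin-secreting neurons of the cortical surface), was at 7.68%, 4.71%, 3.12% and 1.22%. Meis2 and CR ranked among the first 5 columns in the ketamine-treated and susceptible sections. In the resilient section Meis2 ranked 12 and CR 7, and in the control section they ranked 6 and 10. The fourth column of the resilient section was Ndnf_HPF, a GABAergic type named for the gene Ndnf and the hippocampal formation, at 6.78%. That of the control section was L2_IT_RSPv, layer 2 neurons named for the ventral retrosplenial cortex, at 7.23%.

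Spots given no type are listed as wholly unknown. They made up 18 of 128 cluster 8 spots in the ketamine-treated section (14.1%, 95% interval 8.55 to 21.3), 28 of 179 in the susceptible section (15.6%, 10.7 to 21.8), 40 of 294 in the resilient section (13.6%, 9.90 to 18.1) and 7 of 83 in the control section (8.43%, 3.46 to 16.6). Among all other spots it took 3.14%, 3.65%, 1.45% and 3.53%. Over all clusters of a section, its unknown share ranked 2 in the ketamine-treated, susceptible and resilient sections and 3 in the control section. Cluster 5 was above it in the ketamine-treated section (44 of 293 spots, 15.02%) and the control section (100 of 465 spots, 21.5%), where cluster 4 was too (7 of 72 spots, 9.72%). Cluster 16 was above it in the susceptible section (14 of 81 spots, 17.3%) and the resilient section (2 of 10 spots). It held 14.6% of the unknown spots of the ketamine-treated section, 19.0% of the susceptible, 41.7% of the resilient and 5.15% of the control section. The resilient interval of 31.7 to 52.2 did not overlap with the other 3. Cluster 5, which held 35.8% of the unknown spots of the ketamine-treated, 21.8% of the susceptible and 73.5% of the control section, had 2 spots in the resilient section, neither of them unknown, and its part in this measure was not tested.

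The spots that did get a type held few types. The typed spots of cluster 8 kept 1.65 types on average in the ketamine-treated, 1.60 in the susceptible, 1.71 in the resilient and 1.91 in the control section, against 2.24, 2.18, 2.41 and 2.31 in typed spots outside it. Spots with a single type made up 50%, 53.0%, 46.9% and 34.2% of the typed cluster 8 spots, against 24.3%, 25.6%, 19.1% and 21.1% of typed spots elsewhere. Many of these single-type spots were Astro alone, which made up 33 of 55 ketamine-treated, 54 of 80 susceptible, 68 of 119 resilient and 13 of 26 control ones. Few types per spot was not particular to cluster 8. Of all spots, typed or not, 43.0% of ketamine-treated, 44.7% of susceptible and 31.3% of control ones in cluster 8 held a single type. In cluster 5 these values were 46.8%, 42.7% and 47.1%. Cluster 16 had 43.9% and 46.9% in the ketamine-treated and susceptible sections. Clusters 13 and 11 were lower, at 7.89% to 25.2% over the sections. Of all cluster 8 spots, Astro filled 33 of 128 cluster 8 spots in the ketamine-treated section (25.8%, 18.5 to 34.3), 54 of 179 in the susceptible (30.2%, 23.5 to 37.5), 68 of 294 in the resilient (23.1%, 18.4 to 28.4) and 13 of 83 in the control section (15.7%, 8.61 to 25.3). Outside the cluster the same was true of 6.87%, 6.16%, 5.46% and 5.01% of spots. The smallest kept share in any cluster 8 spot was 14.6%, 14.0%, 13.2% and 17.6% in the 4 sections, so smaller shares cannot be seen.

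The share of cluster 8 spots holding Astro was nearly the same in all 4 sections. It was held by 73 ketamine-treated spots (57.0%, 48.0 to 65.7), 103 susceptible spots (57.5%, 49.9 to 64.9), 167 resilient spots (56.8%, 50.9 to 62.5) and 47 control spots (56.6%, 45.3 to 67.5). Outside the cluster, Astro was held by 45.1%, 40.8%, 42.7% and 47.2% of spots. What differed between sections in cluster 8 was how much of a holding spot Astro took, with means of 72.0%, 76.1%, 67.9% and 58.2%. The median in holding spots was 63.9% in the ketamine-treated, 100.0% in the susceptible, 57.7% in the resilient and 51.1% in the control section. No cluster 8 spot had an Astro share between 75% and the whole spot, so the label was either mixed with a sizeable partner or alone. This gap was not particular to cluster 8. Outside it, 1 of 1509 ketamine-treated, 1 of 1333 susceptible, 1 of 1649 resilient and 9 of 1724 control holding spots lay there. In other spots the Astro share most often lay between 25 and 50%, in 47.8% to 52.9% of holding spots.

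**Figure D2:**
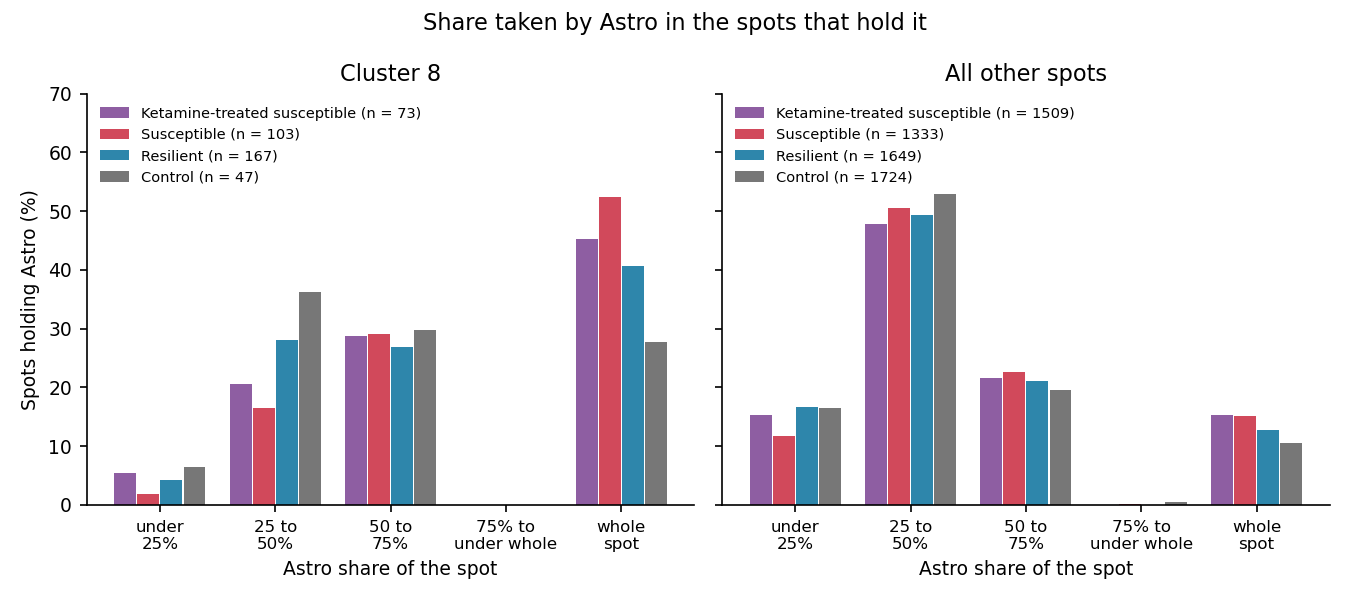
Distribution of the Astro share among the spots that hold it, in cluster 8 (left) and in all other spots (right), as a percentage of holding spots, with 1 bar colour per section. In cluster 8 the whole-spot bar is 45.2% of holding spots in the ketamine-treated, 52.4% in the susceptible, 40.7% in the resilient and 27.7% in the control section, and outside it is between 10.6% and 15.2%.

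Oligo showed the reverse arrangement. In holding spots it took a similar share in each section, with means of 61.6% in the ketamine-treated, 61.4% in the susceptible, 56.7% in the resilient and 57.1% in the control section. The number of holding spots differed, at 25 ketamine-treated spots (19.5%, 13.1 to 27.5), 24 susceptible spots (13.4%, 8.78 to 19.3), 46 resilient spots (15.6%, 11.7 to 20.3) and 45 control spots (54.2%, 42.9 to 65.2). The control interval did not overlap with the others, and those 3 overlapped with each other. Outside cluster 8, Oligo was held by 24.3%, 26.3%, 32.3% and 42.0% of spots. Cluster 8 thus lay above the other spots of its section in the control and below them in the other 3 sections. Oligo was a partner of Astro in 26 of the 47 control spots that held Astro (55.3%, 40.1 to 69.8), against 9 of 73 ketamine-treated (12.3%, 5.80 to 22.1), 6 of 103 susceptible (5.83%, 2.17 to 12.2) and 24 of 167 resilient spots (14.4%, 9.43 to 20.6).

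**Figure D3:**
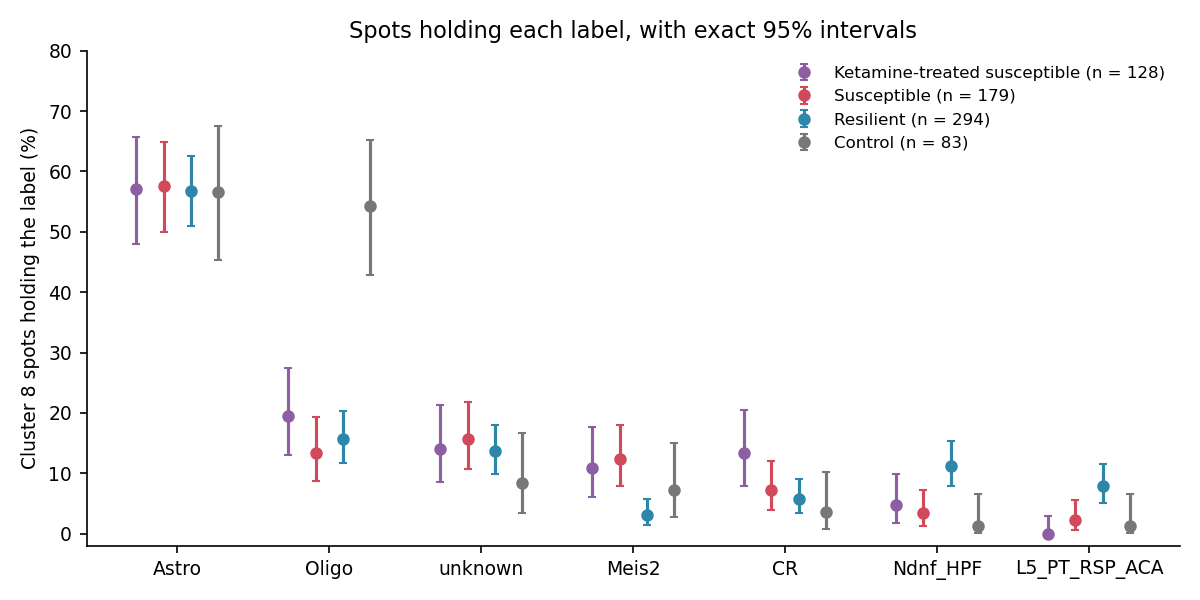
Percentage of cluster 8 spots that hold each label, by section, with exact 95% intervals for counting error. Astro lies between 56.6% and 57.5% in every section, whereas Oligo is at 54.2% in the control section and at 13.4% to 19.5% in the others.

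Because a spot given no type cannot hold Oligo, the unknown share and the Oligo share are tied. Among cluster 8 spots without Oligo, the unknown share was 17.5% of 103 ketamine-treated spots (10.7 to 26.2), 18.1% of 155 susceptible spots (12.4 to 25.04), 16.1% of 248 resilient spots (11.8 to 21.3) and 18.4% of 38 control spots (7.74 to 34.3). On this base the control value, the lowest of the 4 over all cluster 8 spots, was the highest. The same base outside the cluster gave 4.14%, 4.95%, 2.14% and 6.09%. The mean Astro share in spots without Oligo was 48.2%, 49.2%, 42.2% and 44.1%, a narrower range than over all cluster 8 spots.

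GABAergic labels other than Meis2 followed their own order across sections. Ndnf_HPF was held by 6 ketamine-treated, 6 susceptible, 33 resilient and 1 control spot, and its mean share was 3.22%, 1.62%, 6.78% and 0.591%. Cluster 8 held 27.2% of all the Ndnf_HPF share of the resilient section, and 12.9%, 10.9% and 1.39% of that of the ketamine-treated, susceptible and control sections. It took 7.07%, 3.68%, 5.20% and 2.22% of the spots of these sections. Ndnf_HPF was not particular to cluster 8. Cluster 15 averaged 14.0% in the ketamine-treated, 16.3% in the susceptible, 14.4% in the resilient and 17.4% in the control section. Cluster 4 averaged 4.97% over 426 resilient spots. Sst_Chodl, a somatostatin type with long-range axons, varied little between sections in cluster 8, at 3.65%, 3.20%, 3.22% and 3.88%. In all other spots Sst_Chodl varied more, at 3.17%, 2.22%, 4.46% and 0.885%. Sncg, an interneuron type named for gamma-synuclein, was found in 3 resilient and 2 control spots and in no ketamine-treated or susceptible spot. All 11 GABAergic types together had 14.6%, 11.6%, 12.3% and 9.10% in cluster 8, against 8.92%, 9.78%, 11.4% and 8.31% in all other spots.

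As a class, glutamatergic labels were sparser in cluster 8 than in other spots, but CR was not. CR was at 7.68%, 4.71%, 3.12% and 1.22% in the ketamine-treated, susceptible, resilient and control sections. In all other spots it was at 1.79%, 2.63%, 2.07% and 0.742%. The 47 types together, CR included, reached 12.4% in the ketamine-treated, 17.5% in the susceptible, 21.4% in the resilient and 13.9% in the control section. All other spots had 47.4%, 47.1%, 44.8% and 40.2%. The part named for retrosplenial and cingulate cortex was 2.03%, 6.45%, 6.40% and 8.80%. Entorhinal types made up 0.777%, 3.17%, 8.27% and 2.15%, and types of the hippocampal formation 1.52%, 2.38%, 3.17% and 1.12%. L5_PT_RSP_ACA, layer 5 neurons with subcortical axons named for retrosplenial and anterior cingulate cortex, was held by 23 resilient spots, 4 susceptible spots, 1 control spot and 0 of 128 ketamine-treated spots, which allows a share of up to 2.34%. L4_5_IT_TPE_ENT, neurons of layers 4 and 5 named for temporal and entorhinal cortical areas, was held by 1 ketamine-treated, 7 susceptible, 15 resilient and 1 control spot. L2_IT_RSPv was in 4, 16, 11 and 10 spots in the same order.

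Of the 67 types, 21 were in no cluster 8 spot of any section, and 6 of those had a mean of at least 1% elsewhere in some section. The 6 were L5_IT_CTX, L6_CT_CTX, L2_3_IT_CTX and L6b_CTX (cortical layer types), Pvalb (fast-spiking interneurons) and NP_SUB (near-projecting subicular neurons). L6_CT_CTX, for instance, averaged 3.70%, 3.15%, 4.03% and 3.27% over the other spots of the 4 sections, and Pvalb 2.41%, 3.12%, 3.69% and 3.97%. The lack of the layer types was not particular to cluster 8. In clusters 13 and 11, the most like it by mean profile, L5_IT_CTX and L2_3_IT_CTX were in no spot either. Averaged over sections, L6_CT_CTX was at 0.0917% and 0.0684% there, and L6b_CTX at 0.660% and 0.319%. NP_SUB was at 0.256% and 1.81%. Pvalb was in no spot of cluster 13 and at 5.00% in cluster 11. A count of 0 among 684 spots allows up to 0.439% of spots. Of the layer labels named for the cortex at large, L5_NP_CTX was present in 1 resilient spot. Within 1 section a count of 0 allows up to 2.34% of the ketamine-treated, 1.68% of the susceptible, 1.02% of the resilient and 3.61% of the control spots of cluster 8. In all, 15 types were found in cluster 8 of every section.

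The remaining non-neuronal labels were minor. Micro (microglia, the immune cells resident in brain tissue) had 2.19% in the ketamine-treated, 1.11% in the susceptible, 2.07% in the resilient and 2.63% in the control section, in 7, 5, 13 and 5 spots. Outside the cluster Micro was at 1.17%, 0.957%, 1.40% and 1.01%. The 4 vascular types together were at 1.95%, 1.91%, 2.64% and 2.06%, below the 3.97%, 3.50%, 3.81% and 3.12% of other spots. Of these, Peri (pericytes, which wrap capillaries) had 1.23%, 0.531%, 1.30% and 0.597%. OPC, the precursors of oligodendrocytes, were in 4 ketamine-treated and 3 resilient spots and in no susceptible or control spot.

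By mean profile over all columns, clusters 13 and 11 were the most like cluster 8. Averaged over sections, Astro was at 39.1% in cluster 8, 37.6% in cluster 13 and 27.1% in cluster 11. Unknown was at 12.9% in cluster 8 against 1.60% and 2.71% in these clusters. Cluster 5, the next in likeness, came close to or above cluster 8 in this label, with 15.02% in the ketamine-treated, 13.4% in the susceptible and 21.5% in the control section, apart from its 2 resilient spots. The half-summed difference in profile was 31.3 points for cluster 13, 33.9 for cluster 11 and 35.5 for cluster 5. Each section counted equally in these profiles. The 2 resilient spots of cluster 5, at 50% Astro and 50% Sst_Chodl, thus weighed as much as each of its other sections. Their part in this close ranking was not tested. VLMC, the fibroblast-like cells of the meninges and larger vessels, was at 0.584% in cluster 8 against 7.92% in cluster 13, and L2_IT_RSPv at 3.56% against 12.4% in cluster 11. Meis2 was at 4.29% in cluster 8, between 8.89% in cluster 13 and 2.17% in cluster 11. Ndnf_HPF was at 3.05% in cluster 8 and in no spot of cluster 13. In each section the unknown share of cluster 8 was above that of clusters 13 and 11, which ranged from 0.00% to 4.73%.

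In 5 comparisons between sections, types with a mean share of at least 1% in either section were counted as apart when their ratio was 1.5 or more in either direction. The same count over all other spots is the background. Cluster 8 means rest on 83 to 294 spots and those of the other spots on 3264 to 3862, and the part that this plays in the higher counts of cluster 8 was not tested. The frequency of other clusters differed between sections too. In ketamine-treated, susceptible, resilient and control order, cluster 4 had 311, 254, 426 and 72 spots. Cluster 5 had 293, 239, 2 and 465, and cluster 9 had 269, 73, 200 and 103. Cluster 7 varied little, at 239, 241, 231 and 249. The frequency differences of cluster 8 given below were not ranked among clusters.

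The susceptible section was set against the control section to describe stress followed by avoidance. Cluster 8 took 5.20% of susceptible spots (4.48 to 5.99) against 2.22% of control spots (1.77 to 2.75), a difference of 2.98 percentage points (2.09 to 3.89). Within it, susceptible spots had 8.23% Oligo, against 31.0% for control spots, a difference of −22.7 points (−34.4 to −11.8, where each mean share is treated as a share of whole spots, which makes the interval at least as wide as the counting error). Among the 13 clusters with 20 spots or more in each of the 4 sections, which leaves out clusters 5, 14, 16 and 17, this was the lowest difference in points, the others lying between −18.1 and 1.93 with a median of −6.17. Astro was at 43.8% against 33.0% (10.8 points, −2.60 to 23.3), and the unknown share at 15.6% against 8.43% (7.21 points, −2.37 to 15.1). In total 10 of 13 types (76.9%) were apart by 1.5-fold, 5 higher and 5 lower in the susceptible section, against 8 of 22 types (36.4%) in all other spots. The higher ones were CR in 13 susceptible and 3 control spots, L4_5_IT_TPE_ENT in 7 and 1, Ndnf_HPF in 6 and 1, Meis2 in 22 and 6, and CA1 (hippocampal pyramidal neurons) in 3 and 0. Besides Oligo, Micro had 0.424 times and L2_IT_RSPv 0.581 times the control mean share. Sncg and L2_3_IT_ENTl (layer 2 and 3 neurons named for the lateral entorhinal cortex) were in no susceptible spot and in 2 control spots and 1 control spot. The intervals of the differences included 0 for each of these but Oligo. Of the 10, 3 were apart the same way in all other spots. There CR was at 2.63% against 0.742%, Meis2 at 2.24% against 1.29% and Oligo at 14.2% against 22.1%.

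**Figure D4:**
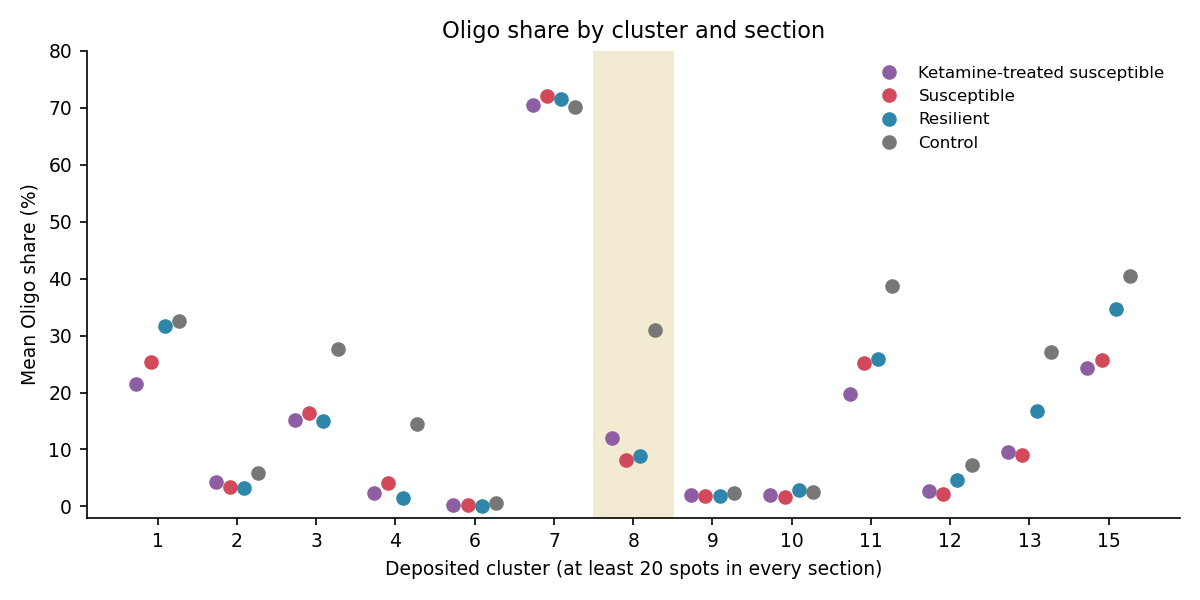
Mean Oligo share in percent in the 13 clusters that all sections fill with 20 spots or more, with 1 point per section and cluster 8 shaded. In cluster 8 the control point is at 31.0% and the other 3 lie between 8.23% and 12.0%.

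Stress without avoidance was described by setting resilient spots against control spots. Cluster 8 was 3.18 times as frequent, at 7.07% of resilient spots (6.31 to 7.90) against 2.22% of control spots (1.77 to 2.75). Oligo was again lower, at 8.88% against 31.0%, a difference of −22.1 points (−33.6 to −11.7). This too was the lowest difference in points among the 13 clusters, the others having a median of −2.75. As a ratio to the control value it was 0.287, which ranked 3 from the lowest of the 13. Ndnf_HPF was higher by 6.19 points (0.664 to 9.75), in 33 of 294 resilient spots against 1 of 83 control spots, a ratio of spot shares of 9.32 with a counting interval of 1.56 to 379. L5_PT_RSP_ACA was in 23 resilient spots and 1 control spot (ratio of spot shares 6.49, 1.05 to 267), but the interval of its mean difference of 4.01 points included 0 (−1.03 to 7.02). L2_IT_RSPv was lower, at 1.58% against 7.23% (−5.65 points, −13.6 to −0.622), with −12.9 points among spots without Oligo. Of 16 types, 13 (81.2%) were apart by 1.5-fold, 7 higher and 6 lower, against 9 of 23 (39.1%) in other spots. The further higher ones were L4_5_IT_TPE_ENT, L6_IT_ENTl, L2_IT_ENTl, CR and Peri. The further lower ones were Sncg in 3 resilient and 2 control spots, L2_IT_RSP_ACA in 2 and 3, L2_3_IT_ENTl in 3 and 1, and Meis2 in 9 and 6. For each of these further types the interval of the mean difference included 0. Of the 13, 6 were apart the same way in all other spots, CR and Meis2 among them. Astro at 38.6% against 33.0% (5.64 points, −6.87 to 17.1) and unknown at 13.6% against 8.43% (5.17 points, −3.80 to 11.9) had intervals that included 0.

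Between the sections of the 2 defeated, saline-treated mice, the intervals of the difference excluded 0 for Meis2 and Ndnf_HPF and included it for Astro, Oligo and unknown. Susceptible spots had 6.47% Meis2 and resilient spots 1.23% (5.24 points, 1.52 to 9.99), in 22 of 179 against 9 of 294 spots. In the other spots Meis2 also differed, at 2.24% against 0.287%. Ndnf_HPF averaged 1.62% of susceptible spots, against 6.78% of resilient spots (−5.16 points, −8.90 to −1.11). L5_PT_RSP_ACA was in 4 susceptible and 23 resilient spots, a ratio of spot shares of 0.286 (0.0718 to 0.836), but the interval of its mean difference of −3.30 points included 0 (−6.43 to 0.143). Oligo was at 8.23% against 8.88% (−0.645 points, −5.90 to 5.21), Astro at 43.8% against 38.6% (5.17 points, −4.24 to 14.6) and unknown at 15.6% against 13.6% (2.04 points, −4.65 to 9.23). Cluster 8 itself took 5.20% of susceptible and 7.07% of resilient spots, a difference of −1.88 points (−2.97 to −0.775). Of 14 types, 10 (71.4%) were apart by 1.5-fold, 4 higher and 6 lower, against 9 of 23 (39.1%) in other spots. L2_IT_RSPv, CA1 and CR were also among the higher ones, and L2_IT_ENTl, L6_IT_ENTl, Peri and Micro among the lower ones. For each of these the interval of the mean difference included 0, and CA1 was in 3 spots of either section. Of the 10, 2 (Meis2 and Ndnf_HPF) were apart the same way in all other spots.

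What differed 7 days after the drug was asked by setting ketamine-treated against susceptible spots. Cluster 8 was less frequent, taking 3.68% of the ketamine-treated section (3.08 to 4.36) and 5.20% of the susceptible one (4.48 to 5.99), a difference of −1.52 points (−2.51 to −0.529). Of its main labels, Astro was at 41.1% against 43.8% (−2.70 points, −14.2 to 8.98), Meis2 was at 6.67% against 6.47% (0.204 points, −5.72 to 6.80) and unknown was at 14.1% against 15.6% (−1.58 points, −9.85 to 7.22). These intervals are wide and leave room for differences of several points either way. Ketamine-treated spots had 12.0% Oligo and susceptible spots 8.23% (3.80 points, −3.36 to 11.6), the highest difference of the 13 clusters, where the others lay between −5.44 and 0.907. Clusters 16 and 5, which are left out of the 13, had like differences. Cluster 16, which the control section lacks, had 9.24% Oligo in 82 ketamine-treated spots and 5.41% in 81 susceptible spots. Cluster 5 had 4.16% in 293 ketamine-treated spots and 0.629% in 239 susceptible spots. Cluster 14, also left out, went the other way, with 3.42% in 95 and 5.16% in 67 spots. CR was at 7.68% against 4.71% (2.96 points, −2.82 to 9.55), although in all other spots it was lower in the ketamine-treated section, at 1.79% against 2.63%. Of 11 types, 7 (63.6%) were apart by 1.5-fold, against 3 of 22 (13.6%) in other spots. CR, Micro, Ndnf_HPF and Peri were the 4 higher ones, and L2_IT_RSPv, L4_5_IT_TPE_ENT and CA1 the 3 lower ones. No interval of a difference for these 7 excluded 0, and none of the 7 was apart the same way in all other spots.

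Spots of different sections can carry the same array barcode. Of 4718 barcodes in all, 2503 were in all 4 sections. Of the 3304 barcodes shared by the ketamine-treated and susceptible sections, 53.2% had the same cluster number in both, whereas 1.10% to 2.56% did for either of these against the resilient or control section, and 25.8% for the resilient against the control section. In cluster 8, 81 of the 124 shared ketamine-treated barcodes (65.3%) were also cluster 8 in the susceptible section, where 4.54% of all shared barcodes were. The sources used here give no map from barcode to position, so whether equal barcodes mark equal places on the slide was not checked. Among these 81 barcodes, Astro averaged 42.4% of ketamine-treated spots, against 41.5% of susceptible spots, with 28 barcodes higher, 28 lower and 25 equal. Oligo was at 8.24% against 15.4%, so here its direction was opposite to that over all cluster 8 spots. The 8 ketamine-treated spots with Oligo all had Oligo in the susceptible section too, where 19 spots held it. Meis2 was at 9.45% against 3.84%, and unknown at 16.0% against 18.5% with only 1 barcode unknown in both.

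**Figure D5:**
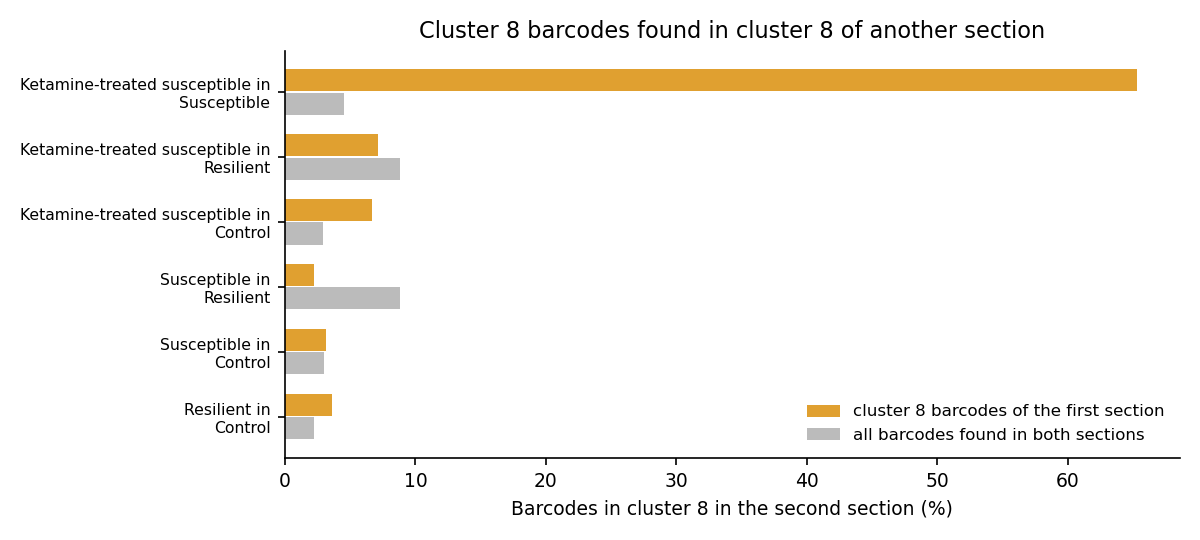
For each pair of sections, the percentage of the first section's cluster 8 barcodes that are in cluster 8 of the second section (orange), beside the percentage among all barcodes found in both (grey). The ketamine-treated and susceptible pair reaches 65.3% against 4.54%, and the other pairs lie between 2.25% and 7.14%.

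Set against the control section, the ketamine-treated section had 1.66 times the frequency of cluster 8, at 3.68% of spots (3.08 to 4.36) against 2.22% (1.77 to 2.75). Oligo was lower, at 12.0% against 31.0% (−18.9 points, −31.2 to −7.03), the second lowest difference in points among the 13 clusters, after −19.0 points in cluster 11. As a ratio to the control value it was 0.388, which ranked 4 from the lowest of the 13. CR was in 17 of 128 ketamine-treated against 3 of 83 control spots, a ratio of spot shares of 3.67 (1.06 to 19.6), and the interval of its mean difference of 6.46 points just included 0 (−0.185 to 12.6). L2_IT_RSPv was lower, at 1.24% against 7.23% (−6.00 points, −13.9 to −0.0929), with −13.1 points among spots without Oligo. Astro at 41.1% against 33.0% (8.11 points, −6.01 to 21.5) and unknown at 14.1% against 8.43% (5.63 points, −4.23 to 14.4) were not separated by their intervals. In total 9 of 12 types (75%) were apart by 1.5-fold, 4 higher and 5 lower, against 6 of 22 (27.3%) in other spots. The other higher ones were Ndnf_HPF in 6 spots against 1, Meis2 in 14 against 6 and Peri in 4 against 1. The other lower ones were L2_IT_RSP_ACA in 2 ketamine-treated and 3 control spots, Sncg in 0 and 2, and L2_3_IT_ENTl in 0 and 1. Of the 9, 2 (CR and Oligo) were apart the same way in all other spots. The control section enters 3 of these comparisons, so its high Oligo share is a single measurement that all 3 share.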

How the data were processed

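For every spot, the authors deposited its cluster and, as a fraction per label, how much of it each of 67 cell types and unknown took, per the file headers. The submitters' processing notes name the genome build mm10. How spots were clustered and types assigned is not stated in these sources, nor is whether the 17 clusters come from 1 clustering of all sections, which was assumed. A deposited table of t-SNE coordinates, a score without unit, was joined by barcode. Fractions were averaged per section and written in percent. Spot shares have exact Clopper-Pearson 95% intervals, and differences combine the intervals of both sections. A count of 0 was given a limit of 3 spots. Like clusters were those with the smallest summed difference in mean profile. Named types are Astro, Oligo, Meis2, CR, unknown, every type with a mean of at least 1% in cluster 8 of any section, and up to 10 per direction and comparison by ratio. Members, lists and thresholds were chosen with earlier results of these data known. The ratio rule was run on simulated sections with far more draws than cluster 8 has spots and with changes larger than 1.5-fold. That run does not show how often the rule errs with the spot numbers here. Python 3.11.15, pandas 2.3.3, scipy 1.17.1 and scikit-learn 1.9.0 were used.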

Additional observations from a re-analysis of the deposited data

How the results depend on the processing

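The 5 differences in cluster frequency kept their direction under the alternatives run. Those in unknown share and in mean Astro share stayed within their counting intervals, which all include 0, but 5 of them turned in direction. The alternatives were leaving out spots given no type, using only spots with at least 50% of their 15 nearest t-SNE neighbours in cluster 8, setting shares under 15% to 0, counting spots led by Astro, and, chosen after seeing the data, using only spots without Oligo or only barcodes in cluster 8 of both sections (for the ketamine-treated against the susceptible section). In spots without Oligo the unknown difference was −0.357 points for susceptible against control (in place of 7.21), −2.29 for resilient against control (5.17) and −0.945 for ketamine-treated against control (5.63), and the Astro difference was −1.93 for resilient against control (5.64). At barcodes in cluster 8 of both sections, Astro was 0.901 points higher in ketamine-treated than in susceptible spots (in place of −2.70). The counts of types apart by 1.5-fold depended on the minimum mean share. With 0.5% in place of 1%, more types are tested, and the counts were 17 for susceptible against control, 23 for resilient against control, 19 for susceptible against resilient, 17 for ketamine-treated against susceptible and 17 for ketamine-treated against control. Leaving out unknown spots gave 12 in place of 7 for ketamine-treated against susceptible. For these settings neither the number of types tested nor the count over all other spots is given here. The counts therefore cannot be read against a background. Of 331 values for the other named types, 11 turned in direction, in each case of a difference whose interval included 0. The Oligo difference between these sections became −7.19 points at barcodes in cluster 8 of both, in place of 3.80. In spots without Oligo, the L2_IT_RSPv difference was −10.6 points for susceptible against control (in place of −3.03), −12.9 for resilient against control (−5.65) and −13.1 for ketamine-treated against control (−6.00), with 38 control spots behind each. The cause was not tested. No paired analysis was possible because each group had 1 section. With 83 to 294 spots per section, labels in 3 or fewer spots carry little weight, and depth is unknown.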

Other observations

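On the deposited t-SNE map, which has no unit and was made from the same spots as the clusters, 94.5% of the 15 nearest neighbours of cluster 8 spots were cluster 8 spots too, and the next clusters were 1 (2.62%), 4 (1.21%) and 7 (0.926%). In the control section 79.4% of the neighbours of cluster 8 spots were control spots, although control spots are 12.1% of cluster 8. In the resilient section 74.99% of neighbours came from the same section, in the susceptible section 52.8% and in the ketamine-treated section 33.0%, where 41.0% were susceptible spots. Over whole sections the share of neighbours from the same section was 35.5% in the ketamine-treated, 41.1% in the susceptible, 48.4% in the resilient and 47.0% in the control section. Of the neighbours of the 93 unknown spots in cluster 8, 18.1% were unknown, against 14.3% for its 591 typed spots.

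Barcodes that were cluster 8 in the ketamine-treated section but in another cluster in the susceptible section were most often in clusters 4 (14 of 124) and 7 (11 of 124). In the other direction, cluster 8 barcodes of the susceptible section were most often in clusters 5 (35 of 150) and 13 (21 of 150) of the ketamine-treated section.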
